A study of Mus musculus with 5 samples.

Results

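The genes described here carry glucose into brain cells, break it down to pyruvate and lactate, and pass pyruvate on to the mitochondria. They are 43 genes chosen by role from a list of symbols, out of 47729 genes in the deposited table, and each of the 43 has a row there. The list runs from glucose transporters through the enzymes of glycolysis to lactate dehydrogenase, the carriers of lactate and pyruvate, pyruvate dehydrogenase with its kinases, and glycogen enzymes. RNA was taken from the right hemisphere of the brain in 5 samples from males of the inbred laboratory mouse strain C57BL/6, aged 5 months. Each sample gave 1 library, made from total RNA with an Illumina kit for mRNA, and the 5 samples form 1 group with no treatment or mutant allele named in the labels. No condition could therefore be compared with another, and the comparisons are between genes within a brain and between the 5 brains. Samples are called animals here, although nothing in the labels says that they came from separate mice, and the p-values may for that reason reflect technical spread alone.

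Brain cells live mainly on glucose from the blood. Glucose enters through facilitative transporters, is trapped as glucose-6-phosphate by hexokinase, and is split and oxidised by a chain of cytosolic enzymes that ends in pyruvate. Pyruvate is either turned into lactate and exported with a proton by monocarboxylate transporters, or taken into mitochondria and fed to the pyruvate dehydrogenase complex. Most steps are served by a small family of isoforms from separate genes, some of them named after muscle, liver or brain, and several of the enzymes have left many processed pseudogenes in the mouse genome. Processed pseudogenes are copies of a spliced mRNA inserted elsewhere, and reads from the parent gene can match them equally well.

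Sequence decides which of these genes can be counted without doubt, so short stretches of coding sequence are shown first, each 90 bases long and read from the GENCODE transcripts of mouse build GRCm38. The first set holds genes whose stretch is repeated letter for letter in a pseudogene. The Gapdh stretch on chromosome 6 is identical in Gm7336 on chromosome 7, which is 1 of 20 other annotated genes that hold it, the Pgk1 stretch on chromosome X is identical in Pgk1-rs7 on chromosome 12, and the Pgam1 stretch on chromosome 19 is identical in Pgam1-ps2 on chromosome 7. The Pkm stretch differs from the pseudogene Gm6560 at 1 base, in capitals.
Gapdh: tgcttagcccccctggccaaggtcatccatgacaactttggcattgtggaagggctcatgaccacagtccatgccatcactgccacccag
Pgk1: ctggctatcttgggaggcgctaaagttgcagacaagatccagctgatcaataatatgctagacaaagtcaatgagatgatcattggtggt
Pgam1: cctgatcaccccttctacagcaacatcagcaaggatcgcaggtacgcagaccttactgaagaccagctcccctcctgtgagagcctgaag
Pkm: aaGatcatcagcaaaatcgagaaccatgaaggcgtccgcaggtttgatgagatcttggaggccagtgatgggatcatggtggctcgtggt
Gm6560: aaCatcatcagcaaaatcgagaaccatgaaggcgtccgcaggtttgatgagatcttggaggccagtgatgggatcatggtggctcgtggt
The last pair shows isoforms of a step, which reads can tell apart. Over these 90 bases Eno2 and Eno1 differ at 21 positions, with the differing bases in capitals.
Eno2: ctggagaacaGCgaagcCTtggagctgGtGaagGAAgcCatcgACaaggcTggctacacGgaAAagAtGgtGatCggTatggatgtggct
Eno1: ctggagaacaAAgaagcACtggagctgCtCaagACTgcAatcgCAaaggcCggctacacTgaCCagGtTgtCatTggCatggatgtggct
Across the 38 pairs of genes within a family, aligned coding sequences were 59.1% to 77.8% identical. The pairs include subunits that work together and are not isoforms, and the lowest value was that of the subunits Mpc1 and Mpc2. The longest run of identical bases was 62, between Pygb and Pygm, and 26 between Aldoc and Aldoa.

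The share of each gene's sequence found elsewhere was measured as the percentage of its 50-base words, taken every 5 bases along its transcripts, that were also found in the transcripts of any other annotated gene. At least 20% was shared by 8 of the 43 genes, whose counts are therefore treated as uncertain, and 15 genes shared no word. Pgk1 shared 63.8%, Pgam1 55.0%, Gapdh 48.0%, Eno1 47.5%, Mpc1 38.0%, Pkm 31.1%, Pfkfb2 25.5% and Gpi1 24.3%. Within the coding sequence alone, Pgk1 and Pgam1 shared 100% of their words, Gapdh 94.2% and Eno1 83.3%, the 4 genes above 80%. The partners differ in kind. Gapdh shared words with 213 pseudogenes, while Eno1 shared most with Eno1b, annotated as protein-coding, and with the pseudogene Gm4735. Mpc1 shared 22.6% of its words with pseudogenes and 15.4% with a transcript that overlaps it, Gpi1 14.9% with pseudogenes and 11.4% with an overlapping long non-coding RNA, and Pfkfb2 only with overlapping genes, chiefly Gm29427. How reads that match several places were treated is not given in the sources used here. For these genes the level may therefore be too low or too high by an unknown amount.

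Library depth was 13184234 to 15570064 counts, and the 43 genes together took 0.776% ± 0.0057 of the counts (SD, n = 5). The 8 neuronal markers checked were each present above 1 RPKM (reads per kilobase of gene, adjusted for the depth of the library), with sums of 1350.0 to 1448 RPKM over the animals, as were the 8 markers each of astrocytes, oligodendrocytes, microglia and endothelium. Levels of the 43 genes ran over a 1262-fold range. Of these genes, 7 had a mean above 100 RPKM, 16 lay between 10 and 100, 18 between 1 and 10, and 2 below 1. Their median level was 11.3 RPKM, against 5.80 RPKM for the 14770 genes with enough counts to be tested. In a tissue made of many cell types, fewer cells of a type and less RNA per cell cannot be told apart.

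**Figure D1:**
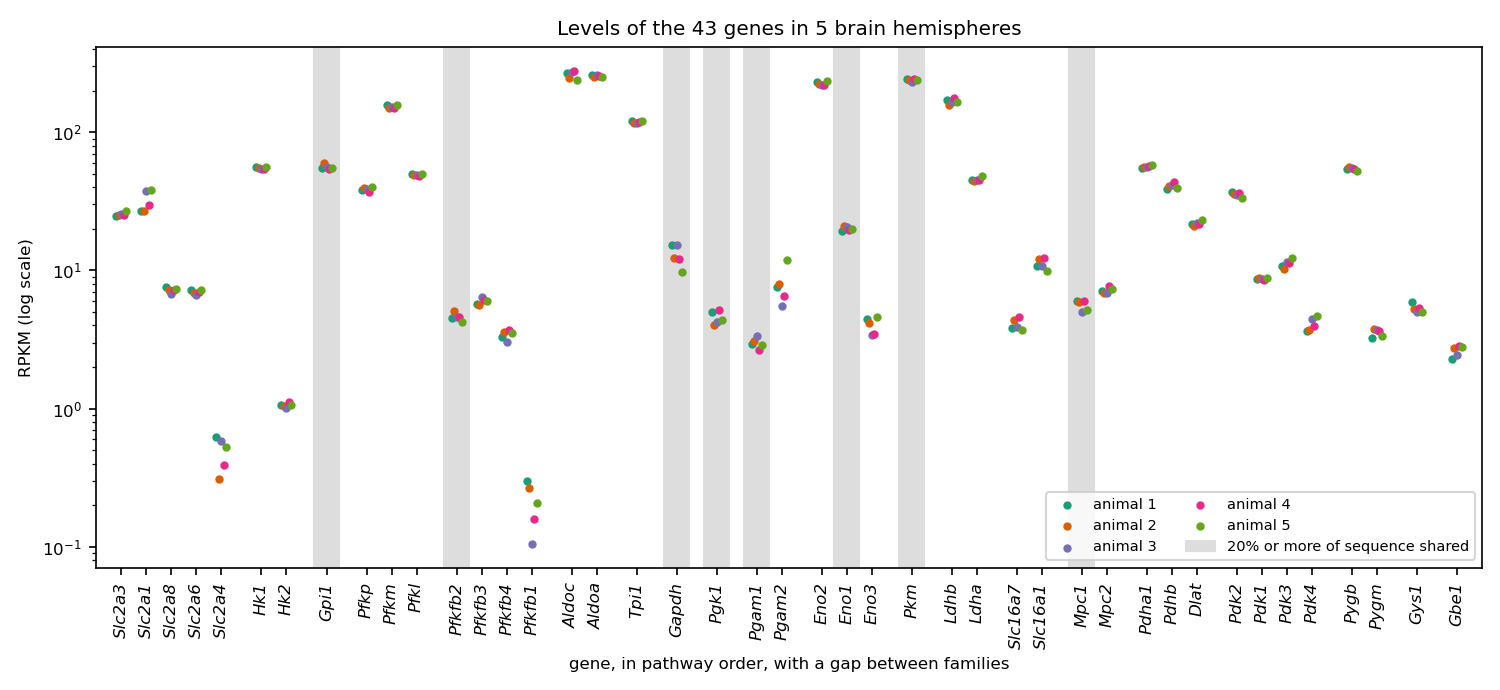
Level of each gene in RPKM (vertical axis, log scale) in each of the 5 animals (coloured points), with genes along the horizontal axis in pathway order and a gap between families. Grey bands mark the 8 genes that share at least 20% of their sequence. The points of a gene lie close together beside the 1262-fold range between genes, and the dip from Gapdh to Pgam2 stands between the high levels of Aldoc, Aldoa, Tpi1, Eno2 and Pkm.

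The RNA of the 5 glucose transporter genes listed came mainly from 2 of them. Slc2a3, which encodes the high-affinity neuronal transporter GLUT3, had 24.8, 25.0, 25.6, 25.2 and 26.7 RPKM in animals 1 to 5. Slc2a1, which encodes GLUT1 of the blood-brain barrier and of glia, had 27.0, 27.1, 37.3, 29.7 and 38.4 RPKM. Slc2a3 was below Slc2a1 in each of the 5 animals, narrowly in animals 1 and 2 and by more in animals 3 and 5. The log2 ratio of Slc2a3 to Slc2a1 averaged -0.31 ± 0.21 (SD, n = 5). This order depends on the division by gene length, since on counts without length the log2 ratio was 0.74. With deposited RPKM the order was not the same in each animal. Slc2a8 and Slc2a6, transporters of internal membranes, averaged 7.22 ± 0.308 and 6.96 ± 0.249 RPKM. Slc2a4, the insulin-responsive transporter of muscle and fat, averaged 0.486 ± 0.134 RPKM on 16 to 29 counts a library. Slc2a3 and Slc2a1 together made up most of the summed RPKM of the 5 genes listed, with mean shares of 35.5% and 44.0%. Slc2a13, a gene of the same name series outside the list, averaged 22.5 ± 0.545 RPKM and is not in that sum.

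Hexokinase, the enzyme that traps glucose in the cell, came almost wholly from 1 gene. Hk1, whose product binds the outer mitochondrial membrane, had 56.3, 55.4, 54.6, 54.2 and 56.1 RPKM, and Hk2, the inducible isoform of muscle and fat, had 1.06, 1.05, 1.01, 1.11 and 1.05 RPKM. Hk1 held 98.1% ± 0.0723 of the family sum. Gpi1, which converts glucose-6-phosphate to fructose-6-phosphate, had 55.3, 59.9, 56.3, 54.2 and 55.5 RPKM, close to the level of Hk1, with the uncertainty of shared sequence named above.

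Phosphofructokinase, the committed step of glycolysis, was led by the gene named after muscle. Pfkp, the platelet isoform, averaged 38.7 ± 1.27 RPKM. Pfkm had 156, 151, 152, 149.7 and 157 RPKM, with no overlap with Pfkp or Pfkl in these animals. Pfkl, the liver isoform, averaged 49.5 ± 0.694 RPKM. The order Pfkm, Pfkl, Pfkp was the same in each animal, and Pfkm held 63.5% ± 0.332 of the sum. The ratio of Pfkm to Pfkl had the smallest SD of the 38 ratios within families, at a log2 value of 1.63 ± 0.014, against -0.35 ± 0.035 for Pfkp over Pfkl.

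The PFKFB genes encode enzymes that make and degrade fructose-2,6-bisphosphate, an activator of phosphofructokinase, and their summed level of 14.2 ± 0.347 RPKM was low beside the 241 ± 4.86 RPKM of the phosphofructokinase genes. Pfkfb2 averaged 4.63 ± 0.308 RPKM. Pfkfb3, the isoform with the highest kinase activity relative to its phosphatase activity, led with 5.68, 5.59, 6.41, 6.15 and 5.96 RPKM, a mean share of 41.9%. Pfkfb4 averaged 3.42 ± 0.249 RPKM. Pfkfb1, the liver isoform, averaged 0.207 ± 0.0781 RPKM on 6 to 16 counts, the lowest level among the 43 genes and the only one left out of the variability test for low counts. The order of Pfkfb2 and Pfkfb3 is not secure. It turned when the gene length was reduced by the share of sequence found in other genes, to a log2 ratio of 0.051, no longer of 1 sign in the 5 animals (exact sign-flip p = 0.625).

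Aldolase had the highest summed level of the 20 families, at 516 ± 19.6 RPKM for both genes together, and the only family in which the higher gene changed from animal to animal. Aldoc, the isoform used as a marker of astrocytes and of some Purkinje cells, had 267, 248, 274, 279 and 239 RPKM. Aldoa, the isoform of muscle and of most cells, had 258, 251, 258, 254 and 252 RPKM. Aldoc was above Aldoa in animals 1, 3 and 4 and below it in animals 2 and 5. The log2 ratio of Aldoc to Aldoa was 0.036 ± 0.084 (exact two-sided sign-flip p = 0.4375, n = 5), a mean smaller than its SD. With 5 animals this test allows no p below 0.0625, so it cannot decide whether the levels of these isoforms differ. Aldoa spread little between animals, by 1.05-fold from lowest to highest, and the turn in order came with the wider 1.17-fold spread of Aldoc. The astrocyte markers Gfap, Aqp4, Slc1a2, Slc1a3, Gja1, Gjb6, Aldh1l1 and S100b deviated on average by -0.058, -0.049, 0.006, 0.093 and 0.007 in log2 from their mean in animals 1 to 5, and their part in the Aldoc values was not tested. With gene lengths taken as the union of annotated exons Aldoc lay below Aldoa in each animal (log2 ratio -0.33), as it did with lengths reduced by shared sequence (-0.13), so their order also depends on the length used.

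Triosephosphate isomerase is encoded by Tpi1, which had 121, 117, 118, 119 and 120.4 RPKM. After it the measured levels dropped over 3 steps. Gapdh, glyceraldehyde-3-phosphate dehydrogenase, averaged 12.9 ± 2.36 RPKM. Pgk1, phosphoglycerate kinase, had 4.99, 4.01, 4.27, 5.15 and 4.36 RPKM. The next step was also low. Pgam1, the phosphoglycerate mutase of brain, averaged 2.99 ± 0.251 RPKM, and Pgam2, the isoform of muscle, had 7.56, 7.92, 5.53, 6.57 and 11.9 RPKM. Pgam2 was above Pgam1 in each animal, with a log2 ratio of Pgam1 to Pgam2 of -1.33 ± 0.46, but the coding sequence of Pgam1 is wholly shared with pseudogenes while Pgam2 shares no word. With lengths reduced by shared sequence the log2 ratio was -0.20 (exact sign-flip p = 0.5) and on counts without length -0.23 (exact p = 0.3125), so the order of this pair is not secure. The mean share of Pgam2 in the family was 71.6%, and 53.5% with reduced lengths. Enolase and pyruvate kinase were high again, at 250 ± 6.49 and 239 ± 5.60 RPKM.

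Of the 4 genes at these steps, Pgk1, Pgam1 and Gapdh share more than 80% of their coding words and Pgam2 shares none. Pgk1, Pgam1 and Gapdh averaged 4.56, 2.99 and 12.9 RPKM. The only other gene above 80% is the enolase gene Eno1, at 20.1 RPKM. Dividing by the unshared length only, as if no read from shared words had been counted, gave 12.6 RPKM for Pgk1, 6.63 for Pgam1, 24.8 for Gapdh and 38.2 for Eno1. These values remain below the 128 RPKM of Tpi1 and the 347 RPKM of Pkm computed in the same way. The share used was that over all transcripts. For each of these genes it is lower than the share in coding sequence, so the division may correct too little. The pseudogenes took few of the reads in the table except those of Gapdh. Pgk1-rs7 averaged 0.4 counts and Pgam1-ps2 0.2 counts a library, while the 196 Gapdh pseudogenes in the table summed to 657 to 944 counts, against 532 to 891 counts of Gapdh itself. With no record of how many reads were set aside for matching several places, the level of these steps relative to their neighbours cannot be given from this table.

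**Figure D2:**
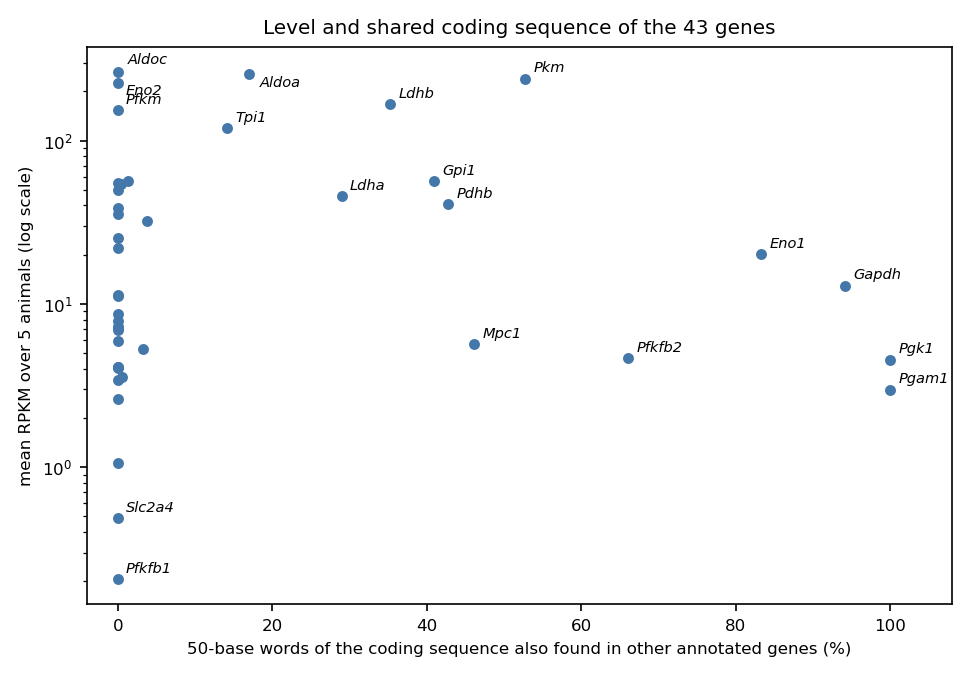
Mean level over the 5 animals in RPKM (vertical axis, log scale) against the percentage of 50-base words of the coding sequence that occur in other annotated genes (horizontal axis), with 1 point per gene. Eno1, Gapdh, Pgk1 and Pgam1, beyond 80% on the horizontal axis, lie at 20.1 RPKM or lower, while Pkm at 52.8% shared lies at 239 RPKM. Genes at 0% shared span the whole range of levels.

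Enolase was led by the neuronal gene. Eno2 had 230.4, 222, 220.1, 221 and 234 RPKM. Eno1, the enolase of most tissues and of glia, averaged 20.1 ± 0.635 RPKM, and Eno3, the muscle enolase, averaged 4.02 ± 0.562 RPKM. Eno2 held 90.3% ± 0.311 of the family sum, but the level of Eno1 is uncertain for its shared sequence. With lengths reduced by that sequence Eno2 was still higher than Eno1 in each animal, but the log2 ratio was 2.56, against 3.48 with full lengths. Pkm, pyruvate kinase, which makes the pyruvate, had 243, 237, 230.1, 244 and 240.3 RPKM. Its splice forms PKM1 and PKM2 cannot be told apart in a table of counts per gene.

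Lactate dehydrogenase interconverts pyruvate and lactate, and the B or heart-type subunit had the higher RNA level. Ldhb had 172, 157, 165, 176 and 166 RPKM. Ldha, the A subunit, had 45.1, 44.3, 44.8, 45.3 and 48.0 RPKM. The ranges were far apart, and the log2 ratio of Ldhb to Ldha was 1.88 ± 0.069, which is a 3.67-fold higher level. Among the lactate transporters, Slc16a7, which encodes the neuronal MCT2, averaged 4.08 ± 0.385 RPKM. Slc16a1, which encodes MCT1 of endothelium and glia, had 10.8, 12.04, 10.8, 12.3 and 9.96 RPKM, with a mean share of 73.3%. Both transporters were highest in animals 2 and 4 and lowest in animal 5, and the log2 ratio of Slc16a7 to Slc16a1 was -1.43 ± 0.031. With the union of annotated exons as length that ratio was -2.97, of the same direction.

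Entry of pyruvate into mitochondria needs both subunits of its carrier. Mpc1 averaged 5.64 ± 0.492 RPKM. Mpc2 had 7.14, 6.84, 6.88, 7.75 and 7.33 RPKM. Mpc1 was below Mpc2 in each animal, yet Mpc1 is 1 of the uncertain genes, and the order turned to a log2 ratio of 0.33 with the length reduced by shared sequence. The pyruvate dehydrogenase complex turns pyruvate into acetyl-CoA. Pdha1, its E1 alpha subunit, had 54.7, 56.5, 56.1, 57.2 and 58.0 RPKM, Pdhb, its E1 beta subunit, averaged 40.9 ± 1.91 RPKM, and Dlat, the E2 subunit, averaged 21.9 ± 0.921 RPKM. The order Pdha1, Pdhb, Dlat held in each animal with the gene lengths used here, and that of Pdhb over Dlat turned with the union of annotated exons (log2 ratio -0.48). With the same lengths the log2 ratio of Pdha1 to Pdhb was 1.84, against 0.47.

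The 4 pyruvate dehydrogenase kinases switch the complex off by phosphorylation, and Pdk2 led them. Pdk2, the kinase found in most tissues, had 37.0, 35.5, 35.2, 36.5 and 33.6 RPKM, a mean share of 59.7%. Pdk1, a kinase induced by low oxygen, averaged 8.70 ± 0.133 RPKM. Pdk3 averaged 11.3 ± 0.816 RPKM. Pdk4, a kinase induced by fasting and by glucocorticoids, had 3.66, 3.71, 4.45, 3.99 and 4.64 RPKM. The order Pdk2, Pdk3, Pdk1, Pdk4 was the same in the 5 animals. The highest values of Pdk4 were in animals 3 and 5, but its spread did not pass the test for variability (edgeR adjusted p = 0.995).

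Glycogen, the small glucose store of astrocytes, is built by glycogen synthase and branching enzyme and broken down by phosphorylase. Pygb, the brain phosphorylase, had 53.9, 55.9, 54.7, 53.8 and 52.8 RPKM, and Pygm, the muscle phosphorylase, averaged 3.54 ± 0.229 RPKM. Pygb held 93.9% ± 0.304 of their sum. Gys1, the synthase, had 5.87, 5.27, 4.97, 5.32 and 5.01 RPKM, and Gbe1, the branching enzyme, had 2.30, 2.75, 2.43, 2.83 and 2.79 RPKM. Both genes for building glycogen were thus measured at a lower level than the main gene for breaking it down.

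**Figure D3:**
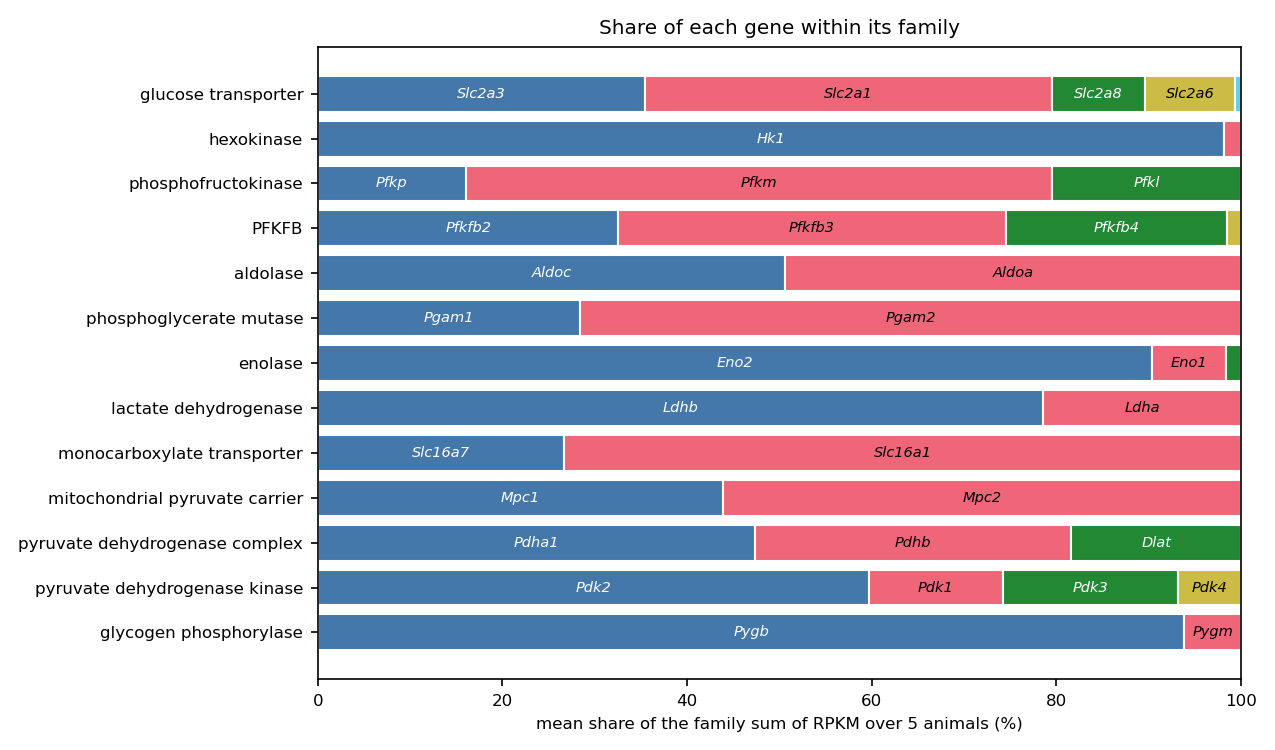
Mean share over 5 animals (horizontal axis, percent of the family's summed RPKM) of each gene in the 13 families with several genes (rows). Hk1 at 98.1%, Pygb at 93.9% and Eno2 at 90.3% fill nearly the whole of their rows, and Aldoc at 50.6% and Aldoa at 49.4% divide theirs almost evenly. The narrow unlabelled segments at the right are Slc2a4, Hk2, Pfkfb1 and Eno3.

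Of the 20 families, 13 had several genes here, which gave 38 pairs. In 37 pairs, or 97.4%, the same gene was higher in each of the 5 animals, and the exception was Aldoc with Aldoa. For comparison, 94.2% of all pairs among the 14770 genes tested kept 1 order in the 5 animals, so a fixed order is usual for genes of different level. The exact two-sided sign-flip test gave p = 0.0625 for each of the 37, the smallest that 5 animals allow, and 0.0642 after adjustment over the 38 pairs, so no pair could pass 0.05 in this design. In 10 of the 13 families the leading gene took more than 50% of the sum, in 9 on counts without length and in 8 with lengths reduced by shared sequence. The exceptions among the 13 were the glucose transporters, the PFKFB genes and pyruvate dehydrogenase, whose subunits work together. In a family of 2 genes the leading gene, picked by its mean, holds about 50% or more by that choice alone. The count therefore says something only of the larger families. Of those, the phosphofructokinases, the enolases and the pyruvate dehydrogenase kinases had a leading gene above 50%.

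Without the division by gene length the order was the opposite for 5 pairs. On counts alone Slc2a3 exceeded Slc2a1 (log2 ratio 0.74), Pfkp exceeded Pfkl (0.74) and Pdk1 exceeded Pdk3 (1.23), since the first gene of each pair has the longer annotated length, whereas Pdhb fell below Dlat (-0.82) and Aldoc below Aldoa (-0.17).

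The 5 brains were then compared gene by gene with edgeR's quasi-likelihood dispersion, set against the trend of genes of like abundance. Of the 42 genes tested, 2 were more variable than the trend at an adjusted p under 0.05, Slc2a1 and Gapdh, beside 0.305% of all genes tested. Without adjustment 4 of the 42 passed 0.05, adding Pgam2 and Aldoc, beside 5.43% of all genes, and 3 were less variable, Pdk1, Hk2 and Pfkl, beside 5% of all genes. After adjustment edgeR called none less variable, and 0% of all genes tested. The median ratio to the trend was 0.751 for the 42 genes, against 0.875 for all genes tested. Their median fold between the highest and the lowest animal was 1.13, against 1.19.

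Slc2a1 (GRCm38 chr4:119108711-119137983, plus strand) ranged 1.43-fold between animals, with a ratio to the trend of 14.5 (edgeR adjusted p = 0.0237). Animals 3 and 5, at 37.3 and 38.4 RPKM, stood above animals 1, 2 and 4, at 27.0, 27.1 and 29.7 RPKM. The call was lost without animal 2, 3 or 5 (adjusted p = 0.0559, 0.0950 and 0.0813). It was also lost with a prior that is not robust and with limma on RPKM (adjusted p = 0.0880 and 0.533), and over the settings tried the adjusted p ran from 6.34e-08 to 0.933. Endothelial cells carry much of the brain's GLUT1, and the markers Cldn5, Pecam1, Flt1, Cdh5, Itm2a, Ly6c1, Abcb1a and Esam were checked. Their mean log2 deviations were -0.003, -0.021, 0.011, 0.023 and -0.010 in animals 1 to 5, with none of the 8 called, and their summed level was 85.5 RPKM in animal 5, the lowest of the 5, against 91.4 RPKM in animal 1. The markers did not move together, since Cldn5 was 18.5 RPKM in animal 5 and 28.3 in animal 1, and Ly6c1 9.45 in animal 5 and 7.98 in animal 1. The part of endothelial cells in the Slc2a1 values was not tested. The 13 genes of a list induced by glucocorticoids had mean log2 deviations of 0.432 and 0.418 in animals 3 and 5 and of -0.269, -0.395 and -0.187 in animals 1, 2 and 4. Of those 13 genes, 8 were called, beside 0.305% of all genes tested. The list was chosen with earlier results of these data known, and its part in the Slc2a1 values was not tested. Hypoxia-induced genes, 11 in the list, showed no call, with mean deviations of -0.023, -0.113, 0.023, 0.091 and 0.022.

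Because Slc2a1 is the gene with the firmest call, its promoter is shown as RefSeq gives it on GRCm38.p6 (chr4:119108495-119108794, plus strand), from 250 bases before its start to 50 after. Capitals mark GGGCGG, here read on the opposite strand as CCGCCC, the letters ACGTG at the core of sites for hypoxia-inducible factors, and TATAAA, which lies after the RefSeq start.
Slc2a1: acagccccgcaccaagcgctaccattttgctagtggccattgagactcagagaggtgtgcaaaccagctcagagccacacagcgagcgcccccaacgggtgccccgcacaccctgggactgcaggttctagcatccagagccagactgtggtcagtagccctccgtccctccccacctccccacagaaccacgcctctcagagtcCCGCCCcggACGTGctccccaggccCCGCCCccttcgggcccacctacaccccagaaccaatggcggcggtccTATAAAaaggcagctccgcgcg
The full palindrome bound by the glucocorticoid receptor was in none of the 60 promoter windows of these genes and in 0.00913% of the 32851 windows of all genes. RefSeq held windows for 40 of the 43 genes, Slc2a3, Slc2a4 and Slc16a7 excepted. On either strand, ACGTG was in 38.3% of the 60 windows, from 19 genes, against 19.6% of all windows and 24.6% of the 14293 windows of tested genes. CACGTG, which contains ACGTG, was in 6 of the 60 windows against 7.15% of all windows and 9.59% of those of tested genes. GGGCGG was in 51.7%, against 35.7% of all windows and 60.7% of those of tested genes, and TATAAA in 5.00%, against 13.6% and 7.20% in the same order. A match of letters is a description and not a site.

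Gapdh (chr6:125161715-125166467, minus strand) ranged 1.58-fold, with a ratio to the trend of 12.3 (edgeR adjusted p = 0.0444). It had 849, 752, 891, 774 and 532 counts, or 15.3, 12.2, 15.2, 12.03 and 9.76 RPKM, in animals 1 to 5. Animals 1 and 3 were high and animal 5 was low. The call was lost without animal 1, 3 or 5 (adjusted p = 0.124, 0.122 and 0.302) and with scaling to library totals only (0.0636). It was also lost with a mean count of at least 50, with a prior that is not robust and with limma on RPKM. The adjusted p ran from 1.94e-06 to 0.933 over the settings tried. Its pseudogenes in the table summed to 930, 861, 744, 657 and 944 counts, and were thus highest in animal 5, where Gapdh was lowest. Gene and pseudogenes together had 132.9, 108.4, 115.1, 91.9 and 112 CPM (counts scaled to library depth), and by that sum animal 4 was lowest and animal 5 was in the middle. How far the Gapdh counts follow its mRNA in each animal cannot be told from this table.

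Pgam2 ranged most of the 42 genes tested, 2.11-fold, but on 85, 99, 66, 86 and 132 counts, and did not pass after adjustment (edgeR adjusted p = 0.375). Animal 5 was high and animal 3 low. Pgam2 and Eno3 are muscle isoforms, and of 8 skeletal muscle markers 7 were below 1 RPKM in the mean, among them Ckm at 0.0426 and Tnnc2 at 0.0327 RPKM. Their summed level was 6.56 to 8.70 RPKM, most of it Acta1 at 5.70 RPKM, and their part in the Pgam2 values was not tested. The Pgam2 promoter (chr11:5803747-5804046, minus strand) is shown because it held the motif of MEF2, a transcription factor of muscle and neurons, in capitals. MEF2 matches were in 3.33% of the windows of these genes, those of Pgam2 and Pfkfb1, in 3.19% of all windows and in 1.71% of those of tested genes.
Pgam2: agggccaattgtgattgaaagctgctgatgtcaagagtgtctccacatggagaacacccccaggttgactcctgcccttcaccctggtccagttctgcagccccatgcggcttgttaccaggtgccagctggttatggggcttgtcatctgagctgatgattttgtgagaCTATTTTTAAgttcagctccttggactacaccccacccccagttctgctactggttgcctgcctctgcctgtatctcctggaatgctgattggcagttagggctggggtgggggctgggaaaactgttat

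At the other end, Pdk1 ranged 1.03-fold, Hk2 1.09-fold and Pfkl 1.04-fold between the 5 animals. Their unadjusted edgeR p-values for low variability were 0.00716, 0.0108 and 0.0402, and none passed after adjustment (adjusted p = 0.881, 0.938 and 0.987). Hk2 kept its narrow range on 83 to 103 counts. Hk1, Tpi1, Aldoa and Pygb each ranged by 1.05-fold or less.

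**Figure D4:**
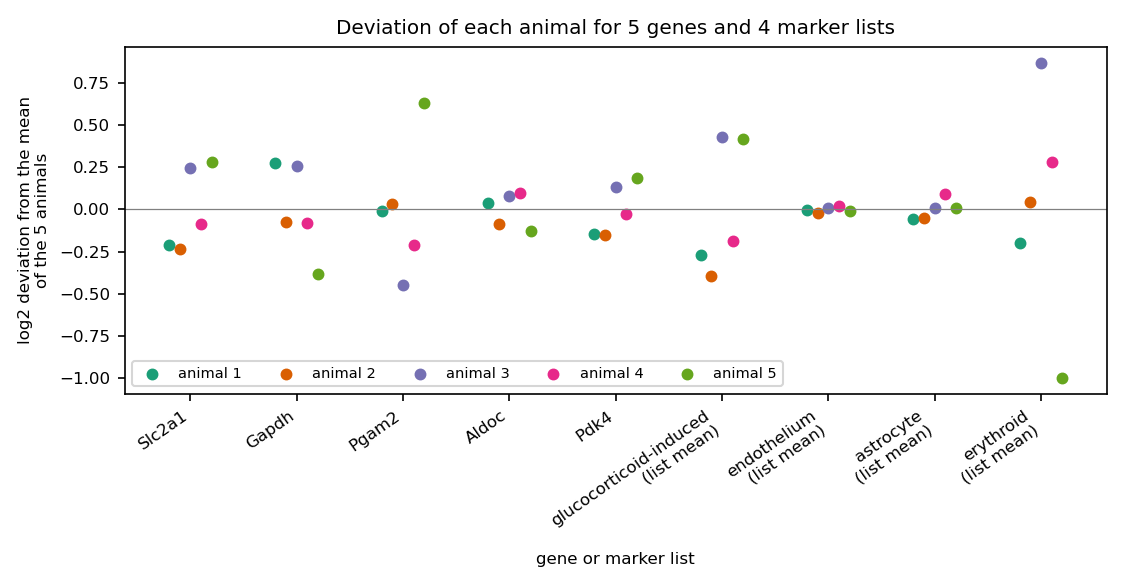
Log2 deviation of each animal (coloured points) from the mean of the 5 animals (vertical axis) for Slc2a1, Gapdh, Pgam2, Aldoc and Pdk4, and the mean deviation of 4 marker lists (horizontal axis). Slc2a1 and the glucocorticoid-induced list are above 0 in animals 3 and 5 and below 0 in animals 1, 2 and 4. That list was chosen with earlier results of these data known. The mean of the endothelial list stays within 0.023 of 0, though its markers did not move together. The part of either list in the Slc2a1 values was not tested.

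Among 51 other genes of these pathways, listed by role, 44 could be tested and 1 was called more variable, again beside 0.305% of all genes. The called gene was Txnip, whose product lowers glucose uptake, with 7.13, 6.54, 12.3, 7.12 and 11.2 RPKM in animals 1 to 5 (edgeR adjusted p = 0.00614). Animals 3 and 5 were high, the same animals as for Slc2a1. The Txnip call was lost without animal 3 (adjusted p = 0.0703) and with limma on RPKM, with a range of 1.13e-12 to 0.933 over the settings tried. The 5 most abundant were Bsg at 223 RPKM, the chaperone of the monocarboxylate transporters, Dld at 61.1, the E3 subunit of pyruvate dehydrogenase, Pgm2l1 at 46.5, a synthase of glucose-1,6-bisphosphate, Pdp1 at 42.8, the phosphatase that opposes the Pdk kinases, and Gpd1 at 28.3, the cytosolic glycerol-3-phosphate dehydrogenase. Their spread did not pass the test.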

How the data were processed

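The deposited table holds whole-number counts for 47729 Ensembl genes in 5 libraries, neither normalized nor pooled. Per the submitters' processing notes, the tools were CASAVA 1.7, STAR 2.4.1d and featureCounts 1.4.6-p4, and the build GRCm38. Not given in the sources used here are the annotation release, how strand was set and how reads with several matches were treated, so overlapping and antisense genes cannot be separated. The deposited RPKM table was checked against the counts. The gene length implied by each library varied by a median of 0.00178% over 7363 genes when library totals were applied in turn down the table, and by 10.7% when each library's own total was used. RPKM was therefore recomputed with own totals and the recovered length, and the deposited RPKM served as an alternative.

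The genes and lists were chosen with earlier results of these data known. Symbols and positions came from GENCODE (47310 genes matched by Ensembl ID), coding sequences from GENCODE transcripts and promoters from RefSeq. Each gene was named with its level, with values in every animal for the leading gene of each family, called genes and pairs without a fixed order. Of other pathway genes, the 5 most abundant and those called were named, and Slc2a13 was added after it was seen. Values by animal of Slc2a3, Hk2, Ldha and Pdk4 were added after they were seen.

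Variability was modelled with edgeR 4.0.16 (R 4.3.3, filterByExpr, TMM, robust glmQLFit with an intercept only) over 14770 genes. The ratio of a gene's quasi-dispersion to the abundance trend was set against an F distribution on 4 and 15.3 degrees of freedom, one-sided, with Benjamini-Hochberg adjustment over the genes tested and a threshold of 0.05. The fit was tested on simulated data. For range folds, log2 CPM values were scaled by TMM, and the prior count was 2. Within-animal ratios used log2 of RPKM plus 0.1 and an exact sign-flip test, two-sided, over 32 patterns. Alternatives used DESeq2 1.42.0 and limma 3.58.1. Reads carried no molecular identifiers as far as the labels say, so depth bounds counting error alone.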

Additional observations from a re-analysis of the deposited data

Results flagged for a closer look

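Each of the 43 levels and 38 ratios was checked for an animal that stands apart from the other 4, a check that flags about 1 in 20 groups by chance, and 1 level and 1 ratio stood out. Ldha reached 48.0 RPKM in animal 5, against 44.3 to 45.3 RPKM in the other animals. The log2 ratio of Hk1 to Hk2 was 5.49 in animal 4, against 5.60 to 5.62 in the others. Hk2 had 103 counts in animal 4, its highest.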

How the results depend on the processing

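The count of 2 genes more variable than the trend was 1 with library totals only and with a mean count of at least 50, and 0 with a prior that is not robust and with limma on recomputed or deposited RPKM. Leaving out 1 animal gave 0 to 2. Slc2a1 was the gene called in each setting that gave 1, except without animal 2, which gave Gapdh. With no filter on low counts 3 were called, Pgam2 among them (adjusted p = 0.0288, with a range up to 0.994 over the settings). DESeq2 marked Gapdh and Slc2a1 as dispersion outliers. Of the other pathway genes 1 was called, against 2 with no filter, 0 with limma on recomputed or deposited RPKM, and 0 to 1 when 1 animal was left out. Pairs of fixed order numbered 35 to 38 under each setting that kept the 38 pairs, among them the addition of pseudogene counts to their parent gene, chosen after seeing the data. Ratios that turned were, on counts without length, Slc2a3 to Slc2a1 (0.74), Pfkp to Pfkl (0.74), Aldoc to Aldoa (-0.17), Pdhb to Dlat (-0.82) and Pdk1 to Pdk3 (1.23), with the union of exons Aldoc to Aldoa (-0.33) and Pdhb to Dlat (-0.48), and with length reduced by shared sequence Pfkfb2 to Pfkfb3 (0.051), Aldoc to Aldoa (-0.13) and Mpc1 to Mpc2 (0.33). The sign held but the fixed order was lost for Pgam1 to Pgam2 with reduced lengths (-0.20) and on counts (-0.23). With deposited RPKM the same was true of Slc2a3 to Slc2a1 (-0.31) and Pfkfb2 to Pfkfb3 (-0.36). Genes sharing at least 20% of sequence numbered 12 with words of 30 bases and 6 with words of 100. No paired comparison of conditions was possible because the samples form 1 group.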

Other observations

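The 5 liver markers were each highest in animal 1, though not confined to it. Alb had 7.82 RPKM in animal 1 and 0 to 0.74 RPKM in the other 4, and 5 liver markers summed to 10.5 RPKM in animal 1 against 0.181 to 1.67 RPKM. Of 5 erythroid genes 5 were called more variable, beside 0.305% of all genes tested, with sums of 62.2 RPKM in animal 5 to 236 RPKM in animal 3. The order of animals in the erythroid sums was not that of Slc2a1, which was high in both of these animals. No cause was tested for these values.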
